A study of Homo sapiens with 6 samples.

Results

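The genes described here encode carriers of amino acids and of neurotransmitters that derive from them. They were taken from the count files as all genes of GENCODE 29 type protein_coding whose symbol begins with SLC1A, SLC3A, SLC6A, SLC7A, SLC36A, SLC38A or SLC43A. This rule uses names and not measured values, but it was set with earlier results of these data known. The rule gave 60 members among 58735 genes, of which 31 had enough reads to be tested. One member, SLC7A6OS, takes its symbol from a gene it overlaps and is not a transporter. RNA-seq was done on Jurkat cells, a human T cell leukaemia line. The shSATB1 group (3 libraries) carried a short hairpin RNA against SATB1, a chromatin-organising protein of T cells, and the shCtrl group (3 libraries) a control short hairpin RNA. All 6 libraries come from the same line, labelled Jurkat, grown in RPMI medium supplemented with serum, GlutaMAX (a glutamine dipeptide), sodium pyruvate and an antimicrobial. The delivery of the hairpins and the number of sequences per target were not given in the sources used here. The question put to these genes is how their transcripts differ with less SATB1.

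Amino acids do not cross the plasma membrane without carriers. Sodium-coupled carriers of the SLC1A and SLC38A families take up small neutral amino acids such as glutamine, alanine and serine against their gradient, and exchangers of the SLC7A family swap the accumulated glutamine for leucine and other large neutral amino acids. Most SLC7A exchangers reach the cell surface as heterodimers, each light chain being joined by a disulphide bond to a heavy chain of the SLC3A family, whereas cationic carriers such as SLC7A1 need no heavy chain. SLC6A carriers use sodium and chloride and move GABA, glycine, monoamines, taurine, betaine, creatine or amino acids. SLC36A1 and several SLC38A members sit on lysosomes, where amino acids that leave the lumen are sensed by the mTORC1 kinase complex. Activated T cells and T cell leukaemias are known for a high demand for glutamine, leucine and cystine.

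The libraries held 26626539 to 28913623 reads in genes. SATB1 itself stood at 101.8, 100.2 and 104.1 CPM in shSATB1 1, 2 and 3 and 279.1, 258.5 and 259.3 CPM in shCtrl 1, 2 and 3, where CPM are read counts scaled to library size, and its level in shSATB1 was 38.4% of the shCtrl level (adjusted p = 1.11e-08 by the quasi-likelihood test of edgeR with Benjamini-Hochberg adjustment, as for every adjusted p here; log2 fold change -1.38, SE 0.0611). For these CPM values the exact two-sided permutation p was 0.1, which is the minimum possible with 3 libraries per group. All 8 T cell markers checked were present, from 138.6 CPM upward in every library, whereas EPCAM of epithelial cells had no read and MS4A1, CD14, LYZ and GFAP reached at most 0.811 CPM. Of the other markers, PDGFRB (fibroblast) at 0.923 to 1.59 CPM, CD79A (B cell) at 47.5 to 64.6 CPM, COL1A1 (fibroblast) at 14.1 to 21.5 CPM and SNAP25 (neuron) at 3.38 to 4.15 CPM were present in all libraries. The 3 fibroblast markers summed to 21.3 to 23.1 CPM in shSATB1 and 15.5 to 18.02 CPM in shCtrl, without overlap, with COL1A2 at no more than 0.0728 CPM, and their part in the results was not tested. Reads in no annotated exon made up 10.9% to 11.7% of reads in shSATB1 and 7.77% to 10.2% in shCtrl, with no overlap. Where a call ended once this percentage entered the fit as a covariate, that is stated, and since it moves with the group, their parts cannot be told apart. The labels do not say whether replicates of a group were grown apart, so every p reflects the scatter of these 6 libraries, which may be only technical. In RNA from a whole culture, fewer cells expressing a gene and less RNA per cell cannot be told apart.

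Of the 60 members, 30 were expressed in Jurkat cells at a mean of at least 1 CPM over all 6 libraries. SLC6A12 met this cut only through shSATB1 (1.75 CPM, against 0.338 CPM in shCtrl). SLC6A19 met it only through shCtrl (1.29 CPM, against 0.769 CPM in shSATB1). On a scale per exon length (TPM, a level per exon length and library size, mean of 6 libraries), SLC38A2, a sodium-coupled carrier of small neutral amino acids, had the highest level at 323.7 TPM, followed by SLC7A5, the large neutral amino acid exchanger LAT1, at 302.6 TPM. SLC38A1, a relative of SLC38A2 (also called SNAT1), stood at 130.8 TPM, SLC3A2, the heavy chain CD98, at 127.7 TPM, SLC1A5, the glutamine exchanger ASCT2, at 119.4 TPM and SLC7A1, the arginine and lysine carrier CAT1, at 102.95 TPM. These 6 genes made up 74.1% ± 0.519 (SD, n = 3) of the summed TPM of all members in shSATB1 and 74.4% ± 0.632 in shCtrl. The taurine carrier SLC6A6 (88.4 TPM) and SLC38A10 (57.7 TPM) came next, and the other tested members ranged down to 0.749 TPM for SLC6A19.

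**Figure D1:**
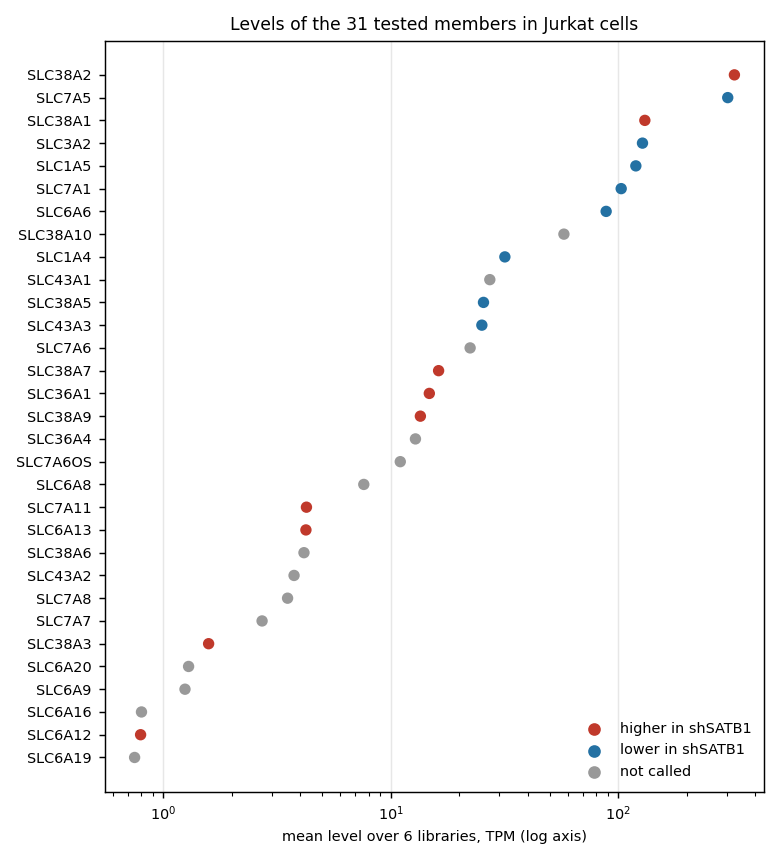
Mean level of each tested member over the 6 libraries, in TPM on a log axis, one point per gene. Red marks genes higher in shSATB1, blue genes lower in shSATB1 and grey genes that did not pass the test. All 8 blue points lie above 20 TPM, as do 2 of the 9 red ones.

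The other 30 members were not expressed by this measure. SLC6A16, an orphan of the SLC6A family, fell just short and was still tested. No read was found in any library for 8 genes, the glutamate carrier SLC1A6, the noradrenaline carrier SLC6A2, the glycine carrier SLC6A5, the proline carrier SLC6A7, the amino acid carrier SLC6A14, the cationic carriers SLC7A2 and SLC7A3, and SLC7A13. With 0 reads, the level in each library lies under the 0.103 to 0.111 CPM that 3 reads correspond to, a floor that covers counting error only. The remaining 21 untested genes had between 1 and 47 reads over all 6 libraries together. They include the glutamate carriers of neurons and glia SLC1A1, SLC1A2, SLC1A3 and SLC1A7, the GABA carrier SLC6A11, the dopamine carrier SLC6A3, the serotonin carrier SLC6A4 (47 reads), SLC6A15, SLC6A17 and SLC6A18. The kidney heavy chain SLC3A1 and the light chains SLC7A9 and SLC7A10 had 3, 6 and 3 reads, and SLC7A4, SLC7A14, SLC36A2, SLC36A3, SLC38A4, SLC38A8 and SLC38A11 are also among them. SLC38A11 had 18, 7 and 13 reads in shSATB1 and 2, 1 and 5 reads in shCtrl, so the groups do not overlap, and it passed the test when no filter on low counts was applied (adjusted p = 0.00659).

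Of the 31 tested members, 9 (29.03%) were higher and 8 (25.8%) lower in shSATB1 at an adjusted p under 0.05, and 14 did not pass. Over all 17520 tested genes, 14.3% were called higher and 16.6% lower, and among genes with a mean of at least 1 CPM 16.1% and 19.8%. All shSATB1 libraries lay above all shCtrl libraries for 12 members (21.7% of all tested genes) and below them for 11 (23.4% of all tested genes). These 23 (against 45.1% of all tested genes) include all 17 called members. The median log2 fold change of the tested members was -0.04, against 0.009 for all tested genes. Most changes were small, with a median fold of 1.30 among called members and 1.31 among all called genes. A change of at least 2-fold was found for 2 members, SLC6A12 and SLC6A13, both higher, whereas 1.71% of all tested genes were called and at least 2-fold higher. When a difference had to exceed 1.2-fold to count (edgeR's glmTreat), SLC6A12, SLC6A13, SLC7A11 and SLC38A7 remained higher and SLC1A5 lower. With the covariate described above, 4 members were higher (SLC6A12, SLC6A13, SLC38A2 and SLC38A7) and 6 lower (SLC1A5, SLC3A2, SLC6A6, SLC7A1, SLC7A5 and SLC7A6). With offsets for gene length and GC content, SLC6A8, SLC36A4, SLC38A10 and SLC43A2 were called too, SLC6A8 higher and the others lower (adjusted p = 0.0447, 0.0106, 0.0192 and 0.046). The number of higher members also dropped to 5 without shCtrl replicate 3 and to 5 without shSATB1 replicate 3. Calls dropped over all tested genes too. Those called higher numbered 2500 in the main fit, 1672 without shCtrl replicate 3 and 1614 without shSATB1 replicate 3. With the covariate 858 were higher and 1262 lower, and with the 1.2-fold requirement 758 and 698, against 2910 lower in the main fit.

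**Figure D2:**
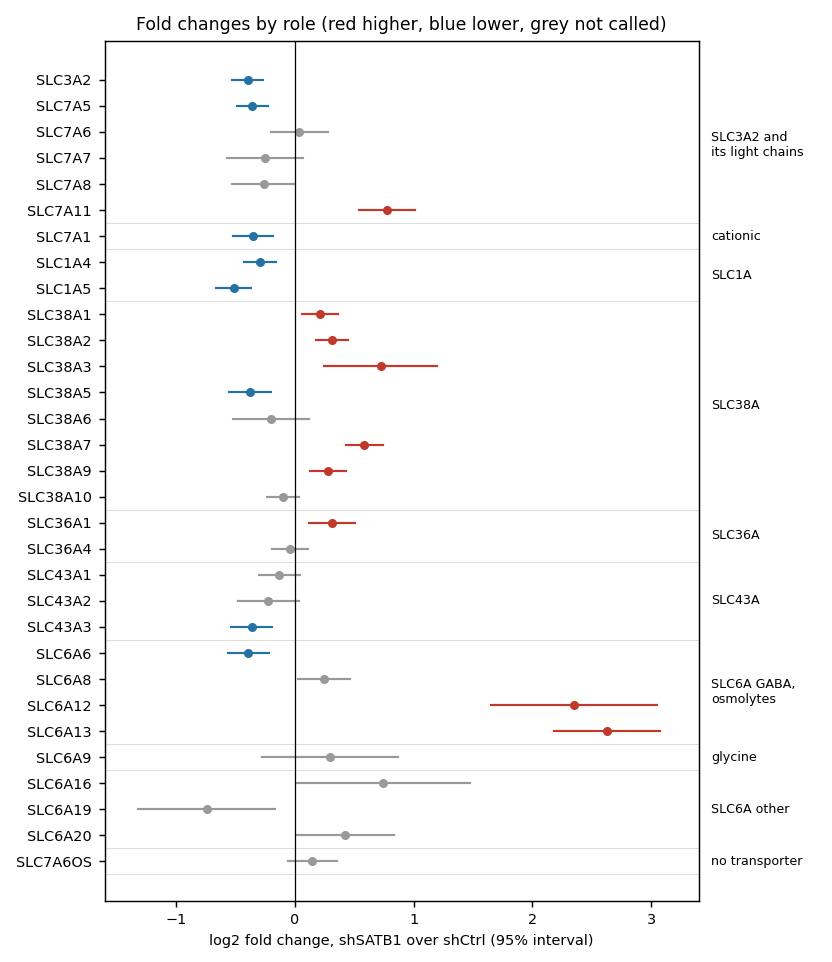
Log2 fold change of each tested member, shSATB1 over shCtrl, with its 95% interval, grouped by role. Red points passed the test as higher, blue points as lower and grey points did not pass. SLC6A13 and SLC6A12 lie far to the right at 2.63 and 2.35, and the other called members lie between -0.51 (SLC1A5) and 0.77 (SLC7A11).

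**Figure D3:**
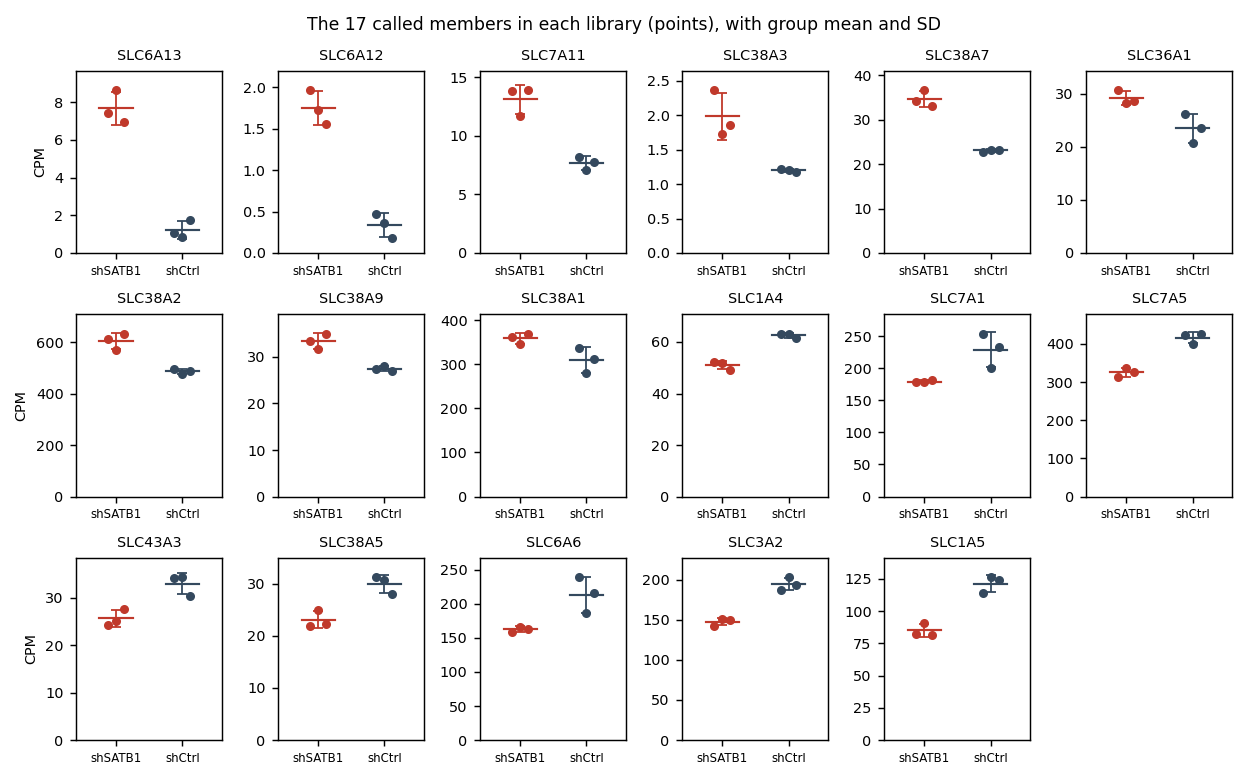
CPM of the 17 called members in each library, ordered from the largest rise to the largest fall. Points are libraries, horizontal lines group means and bars 1 SD (n = 3), and each axis starts at 0. In every panel the 3 shSATB1 points lie wholly above or wholly below the 3 shCtrl points.

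Among SLC6A carriers of GABA and osmolytes, 2 of 4 tested members rose, 1 fell and 1 did not pass. The shares over all tested genes were 14.3% higher and 16.6% lower. SLC6A13, the GABA and taurine carrier GAT2 (chromosome 12, 220621 to 262873, minus strand, hg38), stood at 7.43, 8.64 and 6.96 CPM in shSATB1 1, 2 and 3 and 1.08, 0.873 and 1.77 CPM in shCtrl 1, 2 and 3. Every shSATB1 library was above every shCtrl library, and the fitted fold was 6.18 (95% interval 4.53 to 8.43; adjusted p = 1.83e-06). SLC6A12, the betaine and GABA carrier BGT1 (chromosome 12, 190077 to 214570, minus strand), stood at 1.97, 1.73 and 1.55 CPM in shSATB1 1, 2 and 3 and 0.466, 0.364 and 0.185 CPM in shCtrl 1, 2 and 3. Its groups did not overlap either, at 45 to 54 reads per shSATB1 library and 5 to 13 per shCtrl library, and the fold was 5.095 (interval 3.14 to 8.26; adjusted p = 0.000156). The level of SLC6A12 in shCtrl rests on few reads, so its fold is less precise. Both calls held under all 16 other settings tried, including the covariate (log2 fold change 2.58 and 2.15). The taurine carrier SLC6A6 (TauT) fell, at 158.2, 166.7 and 163.7 CPM in shSATB1 1, 2 and 3 and 239.2, 186.2 and 215.4 CPM in shCtrl 1, 2 and 3. The fold was 1.31 (adjusted p = 0.0024), and shCtrl libraries spread more widely than shSATB1 libraries. The creatine carrier SLC6A8 averaged 11.6 ± 1.04 CPM in shSATB1 and 9.78 ± 0.512 CPM in shCtrl (SD, n = 3 each, as for all ± values of CPM) and did not pass (adjusted p = 0.0835), although the groups did not overlap. A pseudogene copy, SLC6A10P, and other loci share 9.296% of its 50-base stretches, and the effect of this on its count was not tested.

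SLC6A13 and SLC6A12 are neighbours near the end of the short arm of chromosome 12, 6051 bases apart and read in the same direction, and they share no 50-base stretch with each other. Next to SLC6A12, after 11617 bases, lies IQSEC3, a synaptic exchange factor for ARF GTPases, on the opposite strand. It rose as well, from few reads, at 1.45 ± 0.305 CPM in shSATB1 and 0.351 ± 0.0375 CPM in shCtrl (4.09-fold; adjusted p = 0.00036). Beyond IQSEC3, at lower coordinates, the pseudogene WASH8P averaged 19.0 ± 1.72 CPM in shSATB1 and 20.2 ± 0.843 CPM in shCtrl. Its groups overlapped and it did not pass (log2 interval -0.28 to 0.10, adjusted p = 0.477). On the other side, 17256 bases beyond the start of SLC6A13, lies the end of KDM5A, a histone lysine demethylase gene read in the same direction. KDM5A is far more abundant and rose less, at 311.1, 288.8 and 313.1 CPM in shSATB1 1, 2 and 3 and 231.3, 167.7 and 198.97 CPM in shCtrl 1, 2 and 3 (1.53-fold; adjusted p = 0.000329), and was no longer called with the covariate (adjusted p = 0.0787; under the alternatives 3.81e-16 to 0.0787). Whether reads running on from KDM5A count toward SLC6A13 and SLC6A12 was not tested. The unnamed transcript AC007406.5, on the same strand in the gap between KDM5A and SLC6A13, averaged 28.7 ± 2.69 CPM in shSATB1 and 24.4 ± 0.788 CPM in shCtrl, a fold of 1.18 (adjusted p = 0.044; under the alternatives 0.0125 to 0.802). Its call ended under 8 of 16 alternatives, among them the covariate (adjusted p = 0.742), leaving out shCtrl replicate 2 or 3 (adjusted p = 0.0555 and 0.11) and leaving out shSATB1 replicate 1 or 3 (adjusted p = 0.117 and 0.212). AC007406.2, inside an intron of SLC6A13, averaged 0.472 ± 0.0329 CPM in shSATB1 and 0.207 ± 0.147 CPM in shCtrl and did not pass (adjusted p = 0.0849), from at most 14 reads per library and with no overlap between groups. It passed without shCtrl replicate 2 (adjusted p = 0.0146; under the alternatives 0.0146 to 0.242). Beyond KDM5A, the protein-coding genes that begin within 500 kb of SLC6A13 and have a mean of at least 0.2 CPM were CCDC77, B4GALNT3, NINJ2 and WNK1, and none of the 4 passed with edgeR, DESeq2 or limma-voom. CCDC77 averaged 46.5 ± 3.61 CPM in shSATB1 and 50.2 ± 2.81 CPM in shCtrl (log2 interval -0.27 to 0.05, adjusted p = 0.285) and B4GALNT3 9.71 ± 0.317 CPM in shSATB1 and 10.7 ± 0.929 CPM in shCtrl (log2 interval -0.36 to 0.08, adjusted p = 0.334). NINJ2 averaged 1.39 ± 0.343 CPM in shSATB1 and 2.02 ± 0.255 CPM in shCtrl (log2 interval -1.04 to -0.04, adjusted p = 0.0927) and WNK1 317.8 ± 12.1 CPM in shSATB1 and 270.3 ± 46.8 CPM in shCtrl (log2 interval 0.02 to 0.44, adjusted p = 0.0876), so that the unadjusted p of both was under 0.05. WNK1 passed as higher with no filter on low counts (adjusted p = 0.00934), and without shCtrl replicate 1 (adjusted p = 0.000359), whereas its sign turned with the covariate (a log2 fold change of -0.21 and adjusted p = 0.0539; under the alternatives 0.000359 to 0.804). Groups overlapped for all 4. The choice of AC007406.5, of WASH8P and of these 4 genes was made with their values known.

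**Figure D4:**
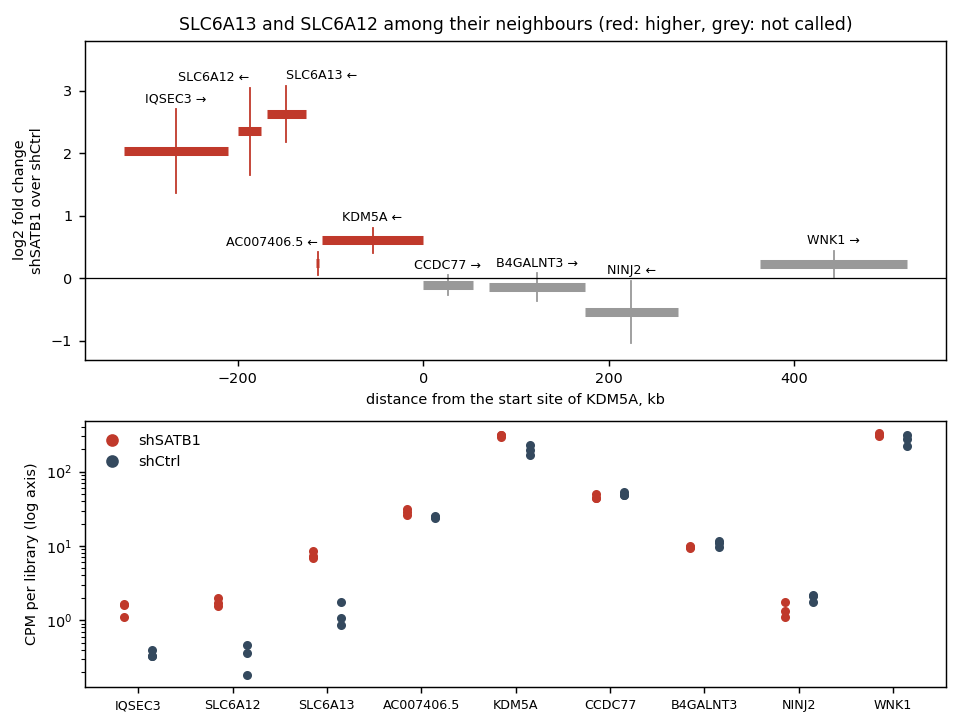
Top, log2 fold change (shSATB1 over shCtrl, vertical lines 95% intervals) of genes around SLC6A13 against distance from the start of KDM5A in kb, with bars drawn to the length of each gene, arrows for strand, red for genes called higher and grey for genes not called. Bottom, CPM per library on a log axis, red for shSATB1 and dark for shCtrl. IQSEC3, SLC6A12 and SLC6A13 lie above 2 on the log2 scale, KDM5A at 0.61, and the 4 genes to the right of KDM5A between -0.54 (NINJ2) and 0.23 (WNK1). WASH8P, which lies to the left of IQSEC3 and was not called, is not drawn.

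SLC3A2 and the light chain genes that pair with it moved in both directions. Of 6 tested heavy and light chains, 2 fell, 1 rose and 3 did not pass (over all tested genes, 16.6% fell and 14.3% rose). The heavy chain gene SLC3A2 (chromosome 11, 62856102 to 62888875, plus strand) had 142.7, 150.7 and 149.5 CPM in shSATB1 1, 2 and 3 and 187.6, 202.9 and 192.9 CPM in shCtrl 1, 2 and 3. All shSATB1 libraries were lower, and the fold was 1.32 (interval 1.204 to 1.44; adjusted p = 0.000308). Its main partner SLC7A5 (chromosome 16, 87830023 to 87869488, minus strand), which exchanges glutamine for leucine and other large neutral amino acids, had 312.9, 335.7 and 326.8 CPM in shSATB1 1, 2 and 3 and 421.97, 400.2 and 426.6 CPM in shCtrl 1, 2 and 3. This was a 1.28-fold fall (interval 1.17 to 1.401; adjusted p = 0.000691), close in size to that of the heavy chain. SLC7A11 (chromosome 4, 138164097 to 138242349, minus strand), the cystine-glutamate exchanger xCT that supplies cysteine for glutathione, went the other way with 13.8, 11.7 and 13.9 CPM in shSATB1 1, 2 and 3 and 8.18, 7.06 and 7.79 CPM in shCtrl 1, 2 and 3. It rose 1.71-fold (interval 1.46 to 2.01; adjusted p = 0.000171), with no overlap between groups, and was no longer called with the covariate (a log2 fold change of 0.50 and adjusted p = 0.073; under the alternatives 3.67e-09 to 0.073). Other loci share 8.65% of the 50-base stretches of SLC7A5 and 9.19% of those of SLC7A11, and the effect of this on their counts was not tested.

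The light chains SLC7A8 (LAT2) and SLC7A7, which exports cationic amino acids, averaged 4.94 ± 0.109 CPM in shSATB1 and 5.93 ± 0.358 CPM in shCtrl (adjusted p = 0.122) and 3.29 ± 0.177 CPM in shSATB1 and 3.91 ± 0.293 CPM in shCtrl (adjusted p = 0.225). In both, the shSATB1 libraries lay below the shCtrl libraries without the difference passing the test. SLC7A6, a cationic and neutral exchanger, averaged 43.9 ± 1.52 CPM in shSATB1 and 42.7 ± 8.898 CPM in shCtrl, with overlapping groups (adjusted p = 0.822, log2 interval -0.20 to 0.28). Its value is uncertain, because 51.4% of its 50-base stretches also occur in other genes, mostly in SLC7A6OS on the opposite strand, and the strand setting of the counting is not given in the sources used here. SLC7A6 turned to a log2 fold change of -0.46 with the covariate (adjusted p = 0.00227) and to -0.09 without shCtrl replicate 2, whereas it rose without shCtrl replicate 1 (adjusted p = 0.0485). SLC7A6OS, which takes part in the nuclear import of RNA polymerase II, averaged 15.5 ± 1.47 CPM in shSATB1 and 13.98 ± 0.853 CPM in shCtrl and did not pass (adjusted p = 0.269). Its value is uncertain too, as 63.1% of its 50-base stretches also occur in SLC7A6.

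As a share of the summed TPM of the light chains that can pair with SLC3A2, SLC7A5 made up 88.2%, 89.5% and 88.7% in shSATB1, against 90.3%, 92.4% and 91.8% in shCtrl. The share of SLC7A5 was lower in every shSATB1 library, while remaining by far the largest. SLC7A11 made up 1.91%, 1.54% and 1.86% in shSATB1, against 0.862%, 0.801% and 0.825% in shCtrl, a higher share in every shSATB1 library. SLC7A6 held 7.93%, 7.03% and 7.57% in shSATB1, against 6.998%, 5.003% and 5.55% in shCtrl, and SLC7A7 and SLC7A8 each held near 1% in both groups. The level of SLC3A2 was 36.95% ± 0.212 of the summed light chains in shSATB1 and 39.2% ± 3.24 in shCtrl (SD, n = 3), with overlapping values. The absolute size of this last ratio depends on the gene length used, and with the longest transcript in place of all exons it was 80.8% in shSATB1 and 85.99% in shCtrl.

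**Figure D5:**
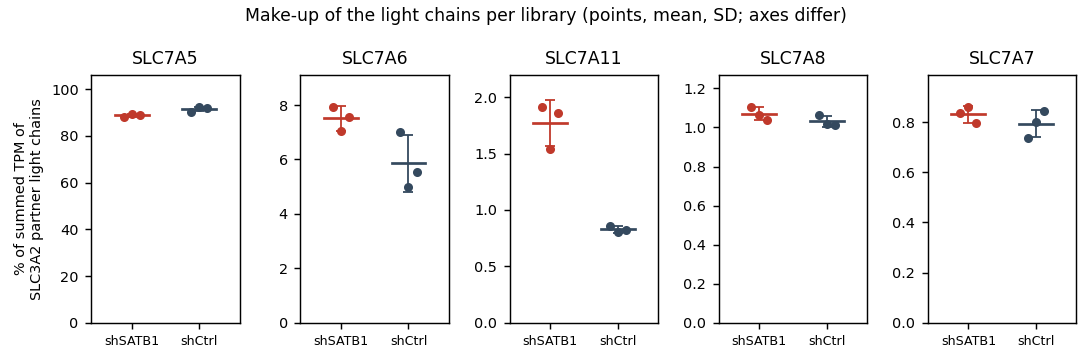
Share of each SLC3A2 partner light chain in their summed TPM, per library (points), with the group mean and SD (n = 3). Axes start at 0 and differ between panels. SLC7A11 stands at 1.77% in shSATB1 and 0.829% in shCtrl on average, and SLC7A5 near 90% in both.

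SLC7A1 and the expressed members of the SLC1A family, SLC1A5 and SLC1A4, fell. SLC7A1 (chromosome 13, 29509410 to 29595688, minus strand), an arginine carrier of T cells, had 177.99, 177.7 and 181.9 CPM in shSATB1 1, 2 and 3 and 253.7, 199.8 and 233.6 CPM in shCtrl 1, 2 and 3. The fold was 1.28 (interval 1.14 to 1.44; adjusted p = 0.0038), and shSATB1 libraries lay close together below all shCtrl libraries. SLC1A5 (chromosome 19, 46774883 to 46788594, minus strand), the exchanger that brings in glutamine, had 82.2, 91.02 and 81.7 CPM in shSATB1 1, 2 and 3 and 113.7, 126.2 and 124.01 CPM in shCtrl 1, 2 and 3. It fell 1.43-fold (interval 1.29 to 1.58; adjusted p = 0.000111), the largest fall among called members, and the call held under all 16 other settings. Of its 50-base stretches, 21.4% lie in an antisense gene, AC008622.2, and the effect of this on its count was not tested. SLC1A4, the alanine, serine and cysteine carrier ASCT1, had 52.1, 51.9 and 49.2 CPM in shSATB1 1, 2 and 3 and 63.2, 63.1 and 61.4 CPM in shCtrl 1, 2 and 3. Its 1.23-fold fall (adjusted p = 0.00285) was no longer called with the covariate (adjusted p = 0.0526; under the alternatives 0.000419 to 0.47).

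The genes of several of these carriers are known targets of ATF4, the factor of the amino acid response, which binds elements with the core TGATGNAA. That core was searched on both strands in the RefSeq promoter windows (GRCh38.p14, 250 bases before to 50 after each annotated start), of which 35116 exist in all and 45 belong to the 26 tested members that matched by symbol. It was found in 5 of those 45 windows, against 3.62% of all windows. Of 11 windows of called members that fell, 4 held it, each in another gene, and of 11 windows of members that rose, 1 did. This core was picked for display with the calls known, 4 of its 5 genes having fallen. The core of the antioxidant response element, given below, was found in as many windows of members that fell, 4 of 11. Its stretches are not shown. A part of ATF4 in these changes was not tested. The stretches have the core in capitals as found on the strand of the gene. Up to 30 bases are given on either side, cut at the end of the window.
SLC1A5, chr19:46784874-46784941, minus strand: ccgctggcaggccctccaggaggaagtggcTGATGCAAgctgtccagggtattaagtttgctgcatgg
SLC3A2, chr11:62881706-62881748, plus strand: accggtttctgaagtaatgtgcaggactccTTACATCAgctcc
SLC7A1, chr13:29595644-29595711, minus strand: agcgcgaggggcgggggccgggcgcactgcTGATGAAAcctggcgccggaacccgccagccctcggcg
SLC1A4, chr2:64989362-64989429, plus strand: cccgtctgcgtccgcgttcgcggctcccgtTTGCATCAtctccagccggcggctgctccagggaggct
SLC38A1, chr12:46266483-46266550, minus strand: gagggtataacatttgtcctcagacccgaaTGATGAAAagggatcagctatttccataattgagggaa

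Counted from the annotated start of its window, the first base of the core lies at -97 in SLC1A5, 37 in SLC3A2, 7 in SLC7A1, -7 in SLC1A4 and -4 in SLC38A1. SLC1A5, SLC1A4, SLC3A2 and SLC38A1 have several annotated starts, and the window with the core is a single one of them in each. The fifth gene, SLC38A1, rose. The E-box CACGTG was found in 9 of the 45 windows, against 7.26% of all windows, with 3 of 11 among members that fell and 2 of 11 among those that rose. The core of the antioxidant response element, TGACNNNGC, was found in 6 of 45, against 13.3% of all windows, with 4 of 11 among members that fell and 0 of 11 among those that rose. Such matches describe letters only, and binding was not measured. SLC6A12, SLC6A6, SLC7A11, SLC38A3 and SLC43A3 had no entry in the table.

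The SLC38A family had 5 higher, 1 lower and 2 not passing among 8 tested members. Over all tested genes, 14.3% were called higher and 16.6% lower. Of the 5 higher members, SLC38A2 and SLC38A7 kept the call with the covariate. SLC38A2 (chromosome 12, 46358189 to 46372867, minus strand), the most abundant member, which is known to be induced when amino acids run short, had 610.2, 569.7 and 632.3 CPM in shSATB1 1, 2 and 3 and 496.5, 476.9 and 487.4 CPM in shCtrl 1, 2 and 3. It was higher in every shSATB1 library, with a fold of 1.24 (interval 1.13 to 1.36; adjusted p = 0.00202), and kept the call with the covariate (adjusted p = 0.0358). SLC38A1, also on chromosome 12 (46183063 to 46270017), had 362.02, 345.4 and 369.8 CPM in shSATB1 1, 2 and 3 and 337.8, 280.03 and 312.8 CPM in shCtrl 1, 2 and 3. This was a 1.16-fold difference near the threshold (adjusted p = 0.0387), and the sign turned with the covariate (a log2 fold change of -0.04 and adjusted p = 0.792). The SLC38A1 call also ended with length and GC offsets (adjusted p = 0.165), without shCtrl replicate 3 (at 0.109) and without shSATB1 replicate 1, 2 or 3 (adjusted p = 0.127, 0.0633 and 0.152; under the alternatives 0.00227 to 0.94). SLC38A1 and SLC38A2 together held 34.5% ± 1.52 of the summed TPM of all members in shSATB1 and 26.3% ± 0.305 in shCtrl (SD, n = 3).

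The lysosomal carriers SLC38A7, SLC38A9 and SLC36A1 were higher too. SLC38A7 (chromosome 16, 58665109 to 58685104, minus strand), which exports glutamine and asparagine from lysosomes, had 34.1, 36.6 and 33.1 CPM in shSATB1 1, 2 and 3 and 22.7, 23.2 and 23.2 CPM in shCtrl 1, 2 and 3. It rose 1.501-fold (interval 1.35 to 1.67; adjusted p = 7.38e-05), the groups were far apart relative to their spread, and the call held under all 16 other settings. SLC38A9, the lysosomal arginine sensor and carrier that signals to mTORC1, had 33.5, 31.6 and 34.995 CPM in shSATB1 1, 2 and 3 and 27.5, 27.97 and 26.995 CPM in shCtrl 1, 2 and 3. The fold was 1.21 (adjusted p = 0.00975), and the call ended with the covariate (adjusted p = 0.168), with length and GC offsets (adjusted p = 0.168), without shCtrl replicate 3 (at 0.0558) and without shSATB1 replicate 3 (adjusted p = 0.0593; under the alternatives 0.00401 to 0.578). SLC36A1, a proton-coupled carrier of small amino acids on lysosomes, had 30.7, 28.2 and 28.5 CPM in shSATB1 1, 2 and 3 and 26.1, 20.7 and 23.6 CPM in shCtrl 1, 2 and 3. Its fold was 1.24 (adjusted p = 0.017), and with the covariate the log2 fold change was 0.01 (adjusted p = 0.973). That call also ended without shCtrl replicate 3, shSATB1 replicate 1 or shSATB1 replicate 3 (adjusted p = 0.0552, 0.0858 and 0.0513; under the alternatives 0.000813 to 0.973). SLC36A4, a relative of SLC36A1, averaged 31.5 ± 1.33 CPM in shSATB1 and 32.4 ± 1.34 CPM in shCtrl, with a log2 interval of -0.20 to 0.11 (adjusted p = 0.711).

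SLC38A3 and SLC38A5, which both move glutamine in either direction, went opposite ways. SLC38A3 had 2.37, 1.73 and 1.86 CPM in shSATB1 1, 2 and 3 and 1.22, 1.2002 and 1.18 CPM in shCtrl 1, 2 and 3, from 32 to 65 reads per library. It was 1.65-fold higher (adjusted p = 0.0234), a call that ended with the covariate (adjusted p = 0.465) and without shCtrl replicate 3, shSATB1 replicate 1 or shSATB1 replicate 3 (adjusted p = 0.0715, 0.123 and 0.053; under the alternatives 0.0136 to 0.465). SLC38A5 (chromosome X, 48458537 to 48470256, minus strand) had 21.95, 24.98 and 22.3 CPM in shSATB1 1, 2 and 3 and 31.2, 30.7 and 27.99 CPM in shCtrl 1, 2 and 3. It fell 1.299-fold (adjusted p = 0.00335) and was no longer called with the covariate (adjusted p = 0.102; under the alternatives 0.000202 to 0.182). SLC38A10 averaged 110.6 ± 6.02 CPM in shSATB1 and 118.2 ± 3.4996 CPM in shCtrl (adjusted p = 0.273) and SLC38A6 5.13 ± 0.898 CPM in shSATB1 and 5.89 ± 0.483 CPM in shCtrl (adjusted p = 0.334), with overlapping groups in both. The log2 intervals were -0.23 to 0.04 and -0.52 to 0.12.

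Of the 3 SLC43A members, 1 fell and 2 did not pass (over all tested genes, 16.6% fell and 14.3% rose). SLC43A3, a carrier of purine nucleobases and not of amino acids, had 24.3, 25.1 and 27.6 CPM in shSATB1 1, 2 and 3 and 34.3, 34.3 and 30.4 CPM in shCtrl 1, 2 and 3. The fold was 1.29 (adjusted p = 0.00416), and the call ended with the covariate (adjusted p = 0.0708; under the alternatives 0.000264 to 0.224). AP000781.2, a gene annotated over it on the same strand, and other loci share 24.3% of its 50-base stretches. The large neutral amino acid carriers SLC43A1 (LAT3) and SLC43A2 (LAT4), both with overlapping groups, averaged 23.7 ± 1.01 CPM in shSATB1 and 25.9 ± 1.91 CPM in shCtrl (adjusted p = 0.251) and 9.48 ± 1.54 CPM in shSATB1 and 11.1 ± 0.58 CPM in shCtrl (adjusted p = 0.174).

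The remaining SLC6A carriers were at low levels. Of 4 tested, none passed the edgeR test at an adjusted p under 0.05, against 30.9% of all tested genes. An unadjusted p under 0.05 was found for 3 of them (SLC6A16, SLC6A19 and SLC6A20). The glycine carrier SLC6A9 averaged 1.81 ± 0.689 CPM in shSATB1 and 1.48 ± 0.165 CPM in shCtrl (adjusted p = 0.437), and its higher mean rests on shSATB1 replicate 2 at 2.61 CPM, without which the log2 fold change was -0.0633. The proline carrier SLC6A20 averaged 2.51 ± 0.225 CPM in shSATB1 and 1.87 ± 0.205 CPM in shCtrl (adjusted p = 0.104) and the orphan SLC6A16 0.919 ± 0.243 CPM in shSATB1 and 0.547 ± 0.166 CPM in shCtrl (adjusted p = 0.111). SLC6A19, the neutral amino acid carrier of kidney and intestine, averaged 0.769 ± 0.165 CPM in shSATB1 and 1.29 ± 0.0274 CPM in shCtrl and lay at the threshold (adjusted p = 0.05001). It was lower in every shSATB1 library and passed with DESeq2 size factors in edgeR, with a filter of 1 CPM in 3 libraries and with limma-voom (adjusted p under the alternatives 0.0383 to 0.39). The monoamine carriers had no tested member.

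Genes around these carriers were described from lists chosen with earlier results of these data known. Of 37 genes of amino acid sensing by mTORC1, 7 rose, 7 fell and 23 did not pass (over all tested genes, 14.3% rose and 16.6% fell). The median log2 fold change of the 37 was -0.06. SESN3, a sestrin that restrains mTORC1, had the largest change, at 43.8 ± 2.37 CPM in shSATB1 and 20.002 ± 0.363 CPM in shCtrl (adjusted p = 3.75e-07), and the leucine-binding sestrin SESN2 averaged 9.16 ± 0.394 CPM in shSATB1 and 6.53 ± 0.844 CPM in shCtrl (adjusted p = 0.00706). The SESN2 call ended with the covariate (adjusted p = 0.394; under the alternatives 0.00187 to 0.394).

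Of 19 tested genes of the amino acid response, 1 rose, 5 fell and 13 did not pass (over all tested genes, 14.3% rose and 16.6% fell). DDIT4, an inhibitor of mTORC1, rose, at 40.5 ± 5.05 CPM in shSATB1 and 20.3 ± 0.726 CPM in shCtrl (adjusted p = 6.49e-06). SHMT2, which converts serine to glycine, fell, at 162.4 ± 7.93 CPM in shSATB1 and 227.8 ± 15.4 CPM in shCtrl (adjusted p = 0.000155). The serine synthesis genes PHGDH and PSAT1 fell, at 145.9 ± 7.49 CPM in shSATB1 and 193.3 ± 11.7 CPM in shCtrl (adjusted p = 0.00054) and 126.03 ± 0.702 CPM in shSATB1 and 164.6 ± 9.42 CPM in shCtrl (adjusted p = 0.000472). PHGDH was no longer called with the covariate (adjusted p = 0.0608; under the alternatives 7.01e-08 to 0.0669). ATF4 itself fell, at 470.6 ± 24.6 CPM in shSATB1 and 597.8 ± 54.8 CPM in shCtrl (adjusted p = 0.00305), a call that ended with the covariate (adjusted p = 0.517; under the alternatives 1.54e-06 to 0.517). The ATF4 target TRIB3 fell, at 35.1 ± 2.82 CPM in shSATB1 and 44.9 ± 0.789 CPM in shCtrl (adjusted p = 0.00254), and was likewise not called with the covariate (adjusted p = 0.137; under the alternatives 0.000127 to 0.219). Among the genes that did not pass, ASNS averaged 1.27 ± 0.186 CPM in shSATB1 and 0.836 ± 0.115 CPM in shCtrl (adjusted p = 0.101), without overlap. CHAC1 averaged 5.41 ± 0.506 CPM in shSATB1 and 4.07 ± 0.783 CPM in shCtrl (adjusted p = 0.0637), with overlapping groups. The median log2 fold change of the 19 tested genes was -0.06. ATF4, PSAT1, TRIB3, ASNS and CHAC1 were named after their values were seen.

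Of 7 tested genes of GABA, betaine and glutamate metabolism, 2 rose, 3 fell and 2 did not pass (over all tested genes, 14.3% rose and 16.6% fell). ABAT, the transaminase that breaks down GABA, rose, at 35.8 ± 2.16 CPM in shSATB1 and 22.4 ± 2.79 CPM in shCtrl (adjusted p = 0.000138). ALDH5A1, the next enzyme of that path, averaged 72.5 ± 2.602 CPM in shSATB1 and 59.1 ± 1.44 CPM in shCtrl (adjusted p = 0.00279; under the alternatives 0.000352 to 0.463, with 0.0522 under the covariate). The aspartate transaminase gene GOT2 and the glutamine synthetase gene GLUL fell, at 125.7 ± 4.28 CPM in shSATB1 and 160.6 ± 8.58 CPM in shCtrl (adjusted p = 0.000947) and 468.5 ± 8.91 CPM in shSATB1 and 575.6 ± 24.2 CPM in shCtrl (adjusted p = 0.00224), and GOT2 was no longer called with the covariate (adjusted p = 0.102; under the alternatives 4.32e-06 to 0.175). The glutamate dehydrogenase gene GLUD1 fell, at 124.7 ± 3.04 CPM in shSATB1 and 151.04 ± 10.6 CPM in shCtrl (adjusted p = 0.00576), a call that ended with the covariate (adjusted p = 0.378; under the alternatives 0.000356 to 0.591). ALDH5A1 and GLUD1 were named after their values were seen.

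Of 10 tested genes of cystine and glutathione use, 2 rose, 3 fell and 5 did not pass (over all tested genes, 14.3% rose and 16.6% fell). GPX4, the glutathione peroxidase that removes lipid peroxides, fell, at 117.3 ± 9.17 CPM in shSATB1 and 183.1 ± 18.5 CPM in shCtrl (adjusted p = 7.11e-05), and glutathione reductase, GSR, rose, at 129.3 ± 2.52 CPM in shSATB1 and 108.4 ± 3.16 CPM in shCtrl (adjusted p = 0.00495). CTH, which makes cysteine from cystathionine, averaged 11.6 ± 0.501 CPM in shSATB1 and 9.59 ± 0.453 CPM in shCtrl (adjusted p = 0.0406), a call that 9 of 16 alternatives ended (0.00308 to 0.607 over them all), among them the covariate (adjusted p = 0.224), leaving out shCtrl replicate 1 or 3 (adjusted p = 0.0769 and 0.143) and shSATB1 replicate 1, 2 or 3 (adjusted p = 0.154, 0.061 and 0.0971). The glutathione synthesis genes GCLC and GSS, named after their values were seen, fell, at 75.5 ± 2.59 CPM in shSATB1 and 88.98 ± 3.39 CPM in shCtrl (adjusted p = 0.0103) and 61.98 ± 3.43 CPM in shSATB1 and 71.3 ± 4.43 CPM in shCtrl (adjusted p = 0.0396). Both calls ended with the covariate (adjusted p = 0.083 and 0.726; under the alternatives 0.000475 to 0.848 and 0.00424 to 0.978). That of GSS also ended without shCtrl replicate 3 (at 0.181) and without shSATB1 replicate 1 or 3 (adjusted p = 0.145 and 0.161).

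Of 18 tested amino acid and amine carriers outside these families, 2 rose, 2 fell and 14 did not pass (over all tested genes, 14.3% rose and 16.6% fell). The vesicular glutamate carrier SLC17A7 averaged 2.33 ± 0.268 CPM in shSATB1 and 1.22 ± 0.25 CPM in shCtrl (adjusted p = 0.00604), the vesicular monoamine carrier SLC18A2 4.01 ± 0.804 CPM in shSATB1 and 2.36 ± 0.384 CPM in shCtrl (adjusted p = 0.00807) and the lysosomal sialic acid carrier SLC17A5 14.1 ± 0.634 CPM in shSATB1 and 18.4 ± 0.612 CPM in shCtrl (adjusted p = 0.00344). These 3 calls ended with the covariate (adjusted p = 0.256, 0.202 and 0.221), and that of SLC18A2 also without shSATB1 replicate 2 (adjusted p = 0.0557). Over all alternatives their adjusted p ran 0.000962 to 0.256, 0.000594 to 0.202 and 0.000891 to 0.221. The aromatic amino acid carrier SLC16A10, named after its values were seen, averaged 15.2 ± 0.853 CPM in shSATB1 and 18.2 ± 1.07 CPM in shCtrl (adjusted p = 0.0368). That call ended under 8 of 16 alternatives (0.00176 to 0.693 over them all), among them the covariate (adjusted p = 0.668) and leaving out shCtrl replicate 2 or 3 (adjusted p = 0.0972 and 0.0774) or shSATB1 replicate 1, 2 or 3 (adjusted p = 0.149, 0.0918 and 0.0533).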

How the data were processed

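The authors deposited unnormalized read counts per Ensembl gene in a separate table for each library. Per the submitters' processing notes, the tools were Trim Galore, STAR and HTSeq and the build hg38; versions, annotation release and strand setting were not given in the sources used here. All 58735 identifiers matched GENCODE 29, which gave symbols, types, hg38 places and exon lengths. The lines that name no gene stayed out of library sizes, and held 7.77% to 11.7% (no exon), 8.99% to 10.1% (ambiguous) and 4.22% to 4.53% (not unique) of reads per library. Counts were fitted for all genes with edgeR 4.0.16 (R 4.3.3): TMM, filterByExpr with a minimum count of 10, the quasi-likelihood test without covariates, and Benjamini-Hochberg adjustment over 17520 genes at 0.05. The fit was tested on simulated data. TPM were computed from the counts and the union of exons, without TMM, and serve only to compare levels and shares between genes. Groups and replicate numbers come from the sample titles. Alternatives used DESeq2 1.42.0 and limma 3.58.1. The members, lists and tests were chosen with earlier results of these data known. Named genes are members, the neighbours of members changed at least 2-fold, and up to 3 called genes of largest change per list; some are not reported here.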

Additional observations from a re-analysis of the deposited data

How the results depend on the processing

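Members higher in shSATB1 numbered 9, and 4 with the percentage of reads outside annotated exons as a covariate, 4 when a difference had to exceed 1.2-fold, and 5 to 10 with each library left out, lowest without shCtrl replicate 3 and without shSATB1 replicate 3. Over all tested genes, those called higher numbered 2500, 858 with the covariate, 758 with the 1.2-fold requirement and 1591 to 3195 with each library left out. Members lower numbered 8 (2910 over all tested genes), and 1 (698) when a difference had to exceed 1.2-fold, with 8 (1897 to 3565) in each fit that left out a library. Under the other settings these counts, the 2 members changed 2-fold and the 30 expressed members stayed within 1.5 times. Signs turned with the covariate for SLC7A6 (-0.46 on the log2 scale), SLC7A6OS (-0.0211), SLC36A4 (0.0309), SLC38A1 (-0.0404) and WNK1 (-0.21), and when a library was left out for SLC6A9 (-0.0633 to 0.447, lowest without shSATB1 replicate 2) and SLC7A6 (-0.0877 to 0.204, lowest without shCtrl replicate 2 and highest without shCtrl replicate 1). The cause was not tested. With the longest transcript as gene length, the shares of summed light-chain TPM were 87.1% in shSATB1 and 89.96% in shCtrl for SLC7A5, 8.47% in shSATB1 for SLC7A6, 1.32% and 1.27% for SLC7A7, 1.43% and 1.38% for SLC7A8, and 0.779% in shCtrl for SLC7A11, and SLC3A2 stood at 80.8% and 85.99%, as fewer exons enter each length. Same-numbered libraries did not deviate together (r of deviations 0.0032 to 0.0798 over 3 pairs), and with a replicate block 9 members were higher and 8 lower, and WNK1 was called (adjusted p = 0.0144). Members with at most 47 reads in all fell under the filter on low counts and rest on too few reads for a precise fold.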
